A study of Mus musculus with 6 samples.

Results

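Markers of macrophage activation, 9 genes in all, were followed in infarcted mouse hearts, and were taken by their symbols from the 54532 genes that the deposited table lists. *Arg1*, *Retnla*, *Chil3*, *Mrc1*, *Mgl2* and *Clec10a* stand for alternative activation (6 genes), and *Nos2*, *Ly6c2* and *Plac8* stand for inflammatory activation and recruited monocytes (3 genes). All 9 symbols were found once in the table. The peri-infarcted and infarcted tissue of 3 WT and 3 *Crlf2-/-* mice (1 library per mouse) was collected on day 7 after permanent ligation of the left anterior descending coronary artery, so that every animal had a myocardial infarction (MI) and no sham heart was sequenced. The labels give the strain as C57BL/6 and the second genotype as TSLPR KO. *Crlf2-/-* mice carry a germline knockout of the receptor chain for thymic stromal lymphopoietin (TSLP) and were generated on a C57BL/6J background by a commercial supplier, whereas WT mice were male young adult C57BL/6J animals bought elsewhere. Whether the groups were littermates is not given in the sources used here.

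Macrophages exposed to IL-4 or IL-13 signal through the shared receptor chain IL-4Rα to the transcription factor STAT6, and express arginase 1, the resistin-like molecule RELMα (*Retnla*), the chitinase-like protein Ym1 (*Chil3*), the mannose receptor CD206 (*Mrc1*) and the galactose-type lectins CD301b (*Mgl2*) and CD301a (*Clec10a*). Exposure to interferon-γ or bacterial products instead induces the inducible nitric oxide synthase (*Nos2*), which uses the same amino acid, L-arginine, as arginase 1. *Ly6c2* encodes the Ly6C antigen that marks inflammatory blood monocytes, and *Plac8* is abundant in the same monocytes. After MI, Ly6C-high monocytes enter the heart first and are followed by macrophages that clear debris and accompany scar formation. None of these genes belongs to a single cell type, since *Mgl2* and *Clec10a* are also expressed by conventional dendritic cells, *Mrc1* by lymphatic endothelium, *Retnla* by adipose tissue and *Chil3* by monocytes, neutrophils and lung macrophages.

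Several of these genes have near copies in the genome, which matters for how sequenced fragments are assigned. *Mgl2* (chromosome 11, from 70130329 to 70137550, plus strand) and *Clec10a* (chromosome 11, from 70156197 to 70170834, plus strand) lie 18646 bases apart, and 5.92% of the windows of 100 bases along the longest *Mgl2* transcript also occur in *Clec10a* transcripts. For *Ly6c2* (chromosome 15, from 75108158 to 75111970, minus strand), 15.8% of such windows also occur in transcripts of its neighbour *Ly6c1*. For *Chil3* the share was 5.42%, most of it with *Chil4*. It was 0 for *Arg1*, *Retnla*, *Mrc1*, *Nos2* and *Plac8*. How the authors' counting treated fragments that fit more than 1 gene is not given in the sources used here, so values of *Mgl2*, *Clec10a*, *Chil3* and *Ly6c2* carry that uncertainty.

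The 250 bases before the start site are shown for the gene with the largest fold change between the groups (*Mgl2*), for the pair of near copies whose fold changes had opposite signs (*Ly6c2* and *Ly6c1*) and for *Retnla*, which held 1 of the STAT6-type matches. They were read from RefSeq (GRCm38.p6), 5′ to 3′ on the strand of the gene, and capitals mark letters that matched a searched motif.
Mgl2, chr11:70130107-70130356, plus strand: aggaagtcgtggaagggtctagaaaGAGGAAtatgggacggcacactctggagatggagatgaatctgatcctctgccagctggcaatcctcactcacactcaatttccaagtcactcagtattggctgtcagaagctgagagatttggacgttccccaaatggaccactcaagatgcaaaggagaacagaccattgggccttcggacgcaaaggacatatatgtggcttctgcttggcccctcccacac
Ly6c2, chr15:75111972-75112221, minus strand: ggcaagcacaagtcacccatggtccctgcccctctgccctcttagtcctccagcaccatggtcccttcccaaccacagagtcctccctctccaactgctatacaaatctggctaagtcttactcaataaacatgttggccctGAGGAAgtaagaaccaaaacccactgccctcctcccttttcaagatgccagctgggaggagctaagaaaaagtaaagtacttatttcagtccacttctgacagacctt
Ly6c1, chr15:75048838-75049087, minus strand: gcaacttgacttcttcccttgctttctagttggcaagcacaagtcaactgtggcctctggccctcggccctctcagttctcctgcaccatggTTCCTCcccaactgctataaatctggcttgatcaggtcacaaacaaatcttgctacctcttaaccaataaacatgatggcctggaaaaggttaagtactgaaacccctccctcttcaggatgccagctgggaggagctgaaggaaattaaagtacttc
Retnla, chr16:48842359-48842608, plus strand: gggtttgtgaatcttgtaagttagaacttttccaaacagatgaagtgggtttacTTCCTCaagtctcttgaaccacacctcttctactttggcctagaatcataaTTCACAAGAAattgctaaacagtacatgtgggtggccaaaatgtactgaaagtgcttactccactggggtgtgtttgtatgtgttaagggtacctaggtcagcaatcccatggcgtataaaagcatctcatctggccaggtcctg

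Of the 9 genes, 6 had such an entry (*Retnla*, *Chil3*, *Mrc1*, *Mgl2*, *Ly6c2* and *Plac8*). In total, 4 motifs were searched on both strands, and overlapping matches were kept. The STAT6-type motif TTCNNNNGAA occurs in 5.85% of all 32851 promoter windows of this length, and was found once in *Retnla* and once in an alternative promoter of *Plac8*. The interferon-γ activated site TTCNNNGAA (7.02% of windows) was found in *Chil3*. The core GAGGAA of sites for PU.1, the lineage factor of myeloid cells (23.3% of windows), was found in *Retnla*, *Mrc1*, *Mgl2*, *Ly6c2*, *Ly6c1* and *Plac8*. The interferon-stimulated core GAAANNGAAA (2.98% of windows) was found in none of these windows. Over the 210 bases that aligned without a gap, the windows of *Ly6c2* and *Ly6c1* were 81.43% identical. A match is a description of the letters and does not show that a factor binds there.

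*Crlf2*, the targeted gene, was examined first. It was 26.8, 24.9 and 21.6 scaled FPKM in the WT libraries and 13.2, 18.6 and 19.9 in the *Crlf2-/-* libraries. All 3 knockout values lay below all 3 WT values, with a log2 fold change of -0.52 (adjusted p = 0.521 from limma), and the mean was 0.705 of that in WT. Whether the deletion leaves part of the transcript cannot be seen from values per gene, so this level does not check the loss of the receptor. FPKM (mapped fragments per kilobase of transcript, relative to library depth) is a level per length, and was scaled here between libraries by factors between 0.9932 and 1.009. Depth was even, at 18508646 to 19682428 fragments on listed genes per library. Cardiomyocyte genes were abundant in every library, with a summed level of the 12 markers between 989 and 2617 scaled FPKM, as the heart label says. The extraction text in the labels names another tissue, retina, and was not followed.

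Between the groups, *Mgl2* and *Clec10a* lay lower in *Crlf2-/-* hearts, *Ly6c2* and *Plac8* lay higher, and *Mrc1* and *Nos2* lay at similar levels. *Arg1*, *Chil3* and *Retnla* varied more from mouse to mouse than between the groups. Of the 9 genes, 8 were tested, since *Retnla* did not reach 10 fragments in 3 libraries. Of these 8, 0 passed an adjusted p of 0.05 (limma on log2(FPKM + 0.1), Benjamini-Hochberg adjustment over 15520 genes), where 0.0129% of all genes tested did so together with an absolute log2 fold change of 0.5. At an unadjusted p under 0.05 there were 4 of the 8 genes, against 6.58% of all genes tested. The 3 WT and the 3 *Crlf2-/-* libraries did not overlap for these same 4 of the 9 genes, against 11.7% of all genes tested. In tissue RNA, fewer cells of a type and less RNA per cell cannot be told apart.

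**Figure D1:**
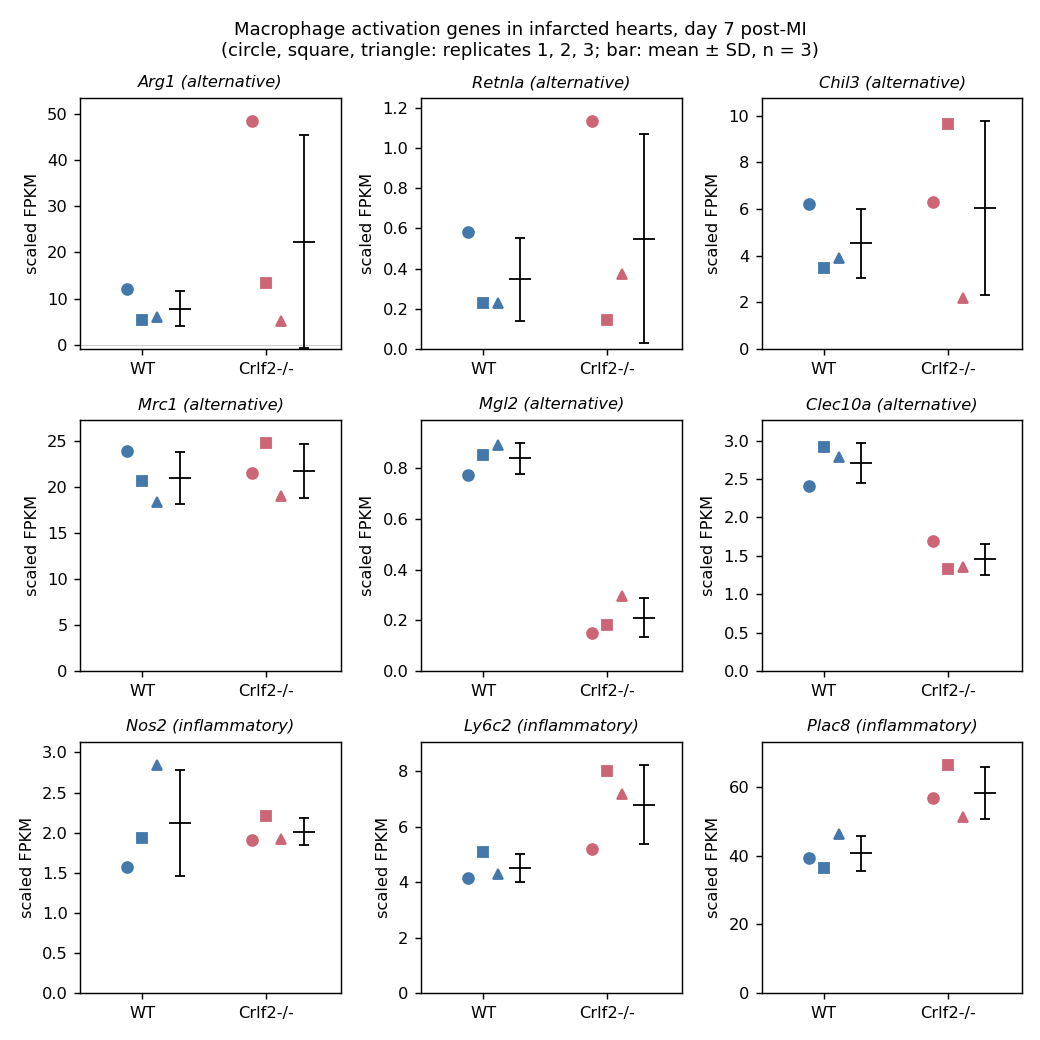
Scaled FPKM of the 9 genes in each library (y axes, starting at or below 0), with WT libraries in blue and Crlf2-/- libraries in red. Symbols stand for replicates 1, 2 and 3, and bars for the mean ± SD of 3 mice. The groups are apart for Mgl2, Clec10a, Ly6c2 and Plac8, and Arg1 reaches 48.6 in 1 Crlf2-/- library.

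The lectin *Mgl2* binds galactose-type sugars and marks a subset of macrophages and dendritic cells. It was measured at 0.773, 0.852 and 0.894 scaled FPKM in the WT libraries and at 0.151, 0.184 and 0.297 in the *Crlf2-/-* libraries. The WT mice lay close together, and the highest *Crlf2-/-* mouse was well below the lowest WT mouse. The means were 0.84 ± 0.0616 FPKM (SD, n = 3) among WT animals, against 0.211 ± 0.0768 FPKM (SD, n = 3) among *Crlf2-/-* animals, so that the WT mean was 3.98 times the *Crlf2-/-* mean. The log2 fold change was -1.62 (standard error 0.24, 95% interval -2.17 to -1.08, adjusted p = 0.109 from limma). In an exact permutation test over the 6 libraries, two-sided, the p was 0.1, the smallest that 3 mice against 3 allow.
The difference rests on few fragments, 37, 39 and 41 in the WT libraries and 7, 9 and 14 in the *Crlf2-/-* libraries, and *Mgl2* passed the filter on low genes mainly through WT. With each library left out in turn, the log2 fold change lay between -1.81 and -1.48.

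*Clec10a*, the neighbouring gene for the second galactose-type lectin, was measured at 2.41, 2.92 and 2.79 scaled FPKM in WT and at 1.69, 1.33 and 1.35 in *Crlf2-/-* libraries. All 3 *Crlf2-/-* mice lay below all 3 WT mice, as for *Mgl2*, and the spread within each group was small. The means were 2.71 ± 0.262 FPKM (SD, n = 3) among WT animals, against 1.45 ± 0.202 FPKM (SD, n = 3) among *Crlf2-/-* animals. The log2 fold change was -0.86 (standard error 0.16, 95% interval -1.21 to -0.50, adjusted p = 0.15 from limma), on 88 to 185 fragments per library. With each library left out in turn it lay between -0.96 and -0.79. The 21 other genes tested within 250 kb of this pair did not share the direction, with 10 higher, 11 lower and a median log2 fold change of -0.02.

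*Mrc1*, the mannose receptor that takes up glycoproteins and is the most abundant of the 6 alternative activation genes, was measured at 23.9, 20.6 and 18.4 scaled FPKM in WT and at 21.5, 24.8 and 19.0 in *Crlf2-/-* libraries. The groups overlapped throughout. The log2 fold change was 0.05 with a 95% interval from -0.27 to 0.37 (adjusted p = 0.996 from limma), which leaves room for a difference of that size in either direction. Relative to *Mrc1* in the same library, *Mgl2* was 0.0323, 0.0413 and 0.0486 in WT and 0.00705, 0.0074 and 0.0157 in *Crlf2-/-* libraries. *Clec10a* relative to *Mrc1* was 0.101, 0.142 and 0.152 in WT and 0.0786, 0.0535 and 0.0712 in *Crlf2-/-* libraries. Neither of these ratios overlapped between the groups (p = 0.1 for each in exact two-sided permutation tests, the lowest value that 3 mice against 3 can give). Relative to *H2-Aa*, a class II gene of dendritic cells and other antigen-presenting cells, *Clec10a* was 0.0141, 0.0141 and 0.0124 in WT and 0.0131, 0.0112 and 0.00807 in *Crlf2-/-* libraries. With that denominator the groups overlapped (p = 0.2 in the exact permutation test). Of 13 ratios computed in all, 8 did not overlap and 5 did, and the exact permutation p of 0.1 became 0.163 after Benjamini-Hochberg adjustment over the 13. Each of the 8 had *Mgl2*, *Clec10a*, *Ly6c2* or *Plac8* as numerator, genes whose own levels did not overlap either. These ratios are therefore not separate evidence of a difference.

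Arginase 1, which turns L-arginine into ornithine and urea, varied most between mice. *Arg1* was measured at 12.1, 5.34 and 6.05 scaled FPKM in WT and at 48.6, 13.4 and 5.07 in *Crlf2-/-* libraries. The highest and the lowest values both came from *Crlf2-/-* mice, so the groups overlapped. The SD of log2(FPKM + 0.1) was 0.63 in WT and 1.62 in *Crlf2-/-* mice, the widest of the 9 genes in both groups. Between the groups the log2 fold change was 1.02, with a 95% interval from -0.95 to 2.99 (adjusted p = 0.952 from limma). Without *Crlf2-/-* replicate 1, the library with 48.6 FPKM, it was 0.17, and without *Crlf2-/-* replicate 3 it was 1.79. It was counted on 254 to 2392 fragments per library.

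*Chil3*, a chitinase-like protein without enzyme activity that is secreted by activated macrophages, was measured at 6.22, 3.48 and 3.89 scaled FPKM in WT and at 6.30, 9.63 and 2.18 in *Crlf2-/-* libraries. Again the highest and the lowest library were both *Crlf2-/-*. For *Chil3* the log2 fold change was 0.22, with a 95% interval from -0.92 to 1.36 (adjusted p = 0.996 from limma), and it changed sign to -0.23 without *Crlf2-/-* replicate 2. It was 0.82 without *Crlf2-/-* replicate 3. Its relative *Chil1* was at 0.479 ± 0.279 FPKM (SD, n = 3) among WT animals, against 0.237 ± 0.0771 FPKM (SD, n = 3) among *Crlf2-/-* animals, and *Chil4* had 0 fragments in each library, a count that allows up to 3.

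*Retnla*, a secreted resistin-like molecule, was close to the limit of detection with 8, 3 and 3 fragments in the WT libraries, against 15, 2 and 5 in the knockout. These correspond to 0.584, 0.229 and 0.229 scaled FPKM in WT and to 1.13, 0.143 and 0.371 in *Crlf2-/-* mice. The groups overlapped, and a difference was not detectable at this depth. *Arg1* and *Retnla* shared their highest library, *Crlf2-/-* replicate 1, and within WT all of *Arg1*, *Chil3* and *Retnla* were highest in replicate 1. Of its family, *Retnlg*, which is expressed by neutrophils, was at 1.62, 3.32 and 0.385 scaled FPKM in WT and at 0.535, 0.432 and 1.58 in *Crlf2-/-* libraries, another pair of overlapping groups. The remaining resistin-like genes did not pass the filter on low values, and of the chitinase-like genes *Chil3* and *Chil1* alone passed it.

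Adipose, lung and neutrophil genes were summed per library, since these sources also express *Retnla* or *Chil3*. The 8 adipose markers, all with fragments, summed to 38.6 to 107 scaled FPKM in WT and 17.3 to 56.8 in *Crlf2-/-* libraries, and 5 of the 5 tested were lower, 1 of them at an unadjusted p under 0.05. The 8 lung markers summed to 3.64 to 14.7 in WT and 3.20 to 5.04 in *Crlf2-/-* libraries, with *Scgb3a2* at 0 fragments throughout. The highest lung sum was that of WT replicate 3. There *Sftpc*, named after its values were seen, was at 8.30 scaled FPKM, against 0.0846 to 0.344 in the other libraries. In those libraries *Hopx* was the largest part of the sum, and it lay between 2.60 and 4.24 in every library. The 13 neutrophil markers summed to 18.0 to 31.9 in WT and 19.8 to 27.3 in *Crlf2-/-* libraries, and 0 of the 8 tested had an unadjusted p under 0.05. The part of these sources in the values of *Retnla* and *Chil3* was not tested.

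Among the 3 inflammatory genes, *Ly6c2* encodes a membrane-anchored antigen of blood monocytes. It was measured at 4.13, 5.09 and 4.30 scaled FPKM in WT and at 5.21, 8.01 and 7.18 in *Crlf2-/-* libraries. The groups did not overlap, but the lowest *Crlf2-/-* mouse exceeded the highest WT mouse only narrowly. The means were 4.51 ± 0.512 FPKM (SD, n = 3) among WT animals, against 6.80 ± 1.44 FPKM (SD, n = 3) among *Crlf2-/-* animals, a ratio of 1.51. For *Ly6c2* the log2 fold change was 0.57 (standard error 0.17, 95% interval 0.17 to 0.96, adjusted p = 0.483 from limma). With each library left out in turn it lay between 0.44 and 0.74.

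The neighbour *Ly6c1*, whose product is expressed by endothelium as well as leukocytes, had the opposite sign. It was measured at 41.3, 40.4 and 38.6 scaled FPKM in WT and at 28.4, 34.7 and 32.1 in *Crlf2-/-* libraries, again without overlap (log2 fold change -0.34, adjusted p = 0.525 from limma). *Ly6c2* relative to *Ly6c1*, itself lower in *Crlf2-/-* libraries, was 0.1, 0.126 and 0.111 in WT and 0.184, 0.231 and 0.224 in *Crlf2-/-* mice (p = 0.1 in an exact two-sided permutation test, again the lowest it can give). Relative to the macrophage gene *Adgre1*, *Ly6c2* was 0.0369, 0.0564 and 0.0504 in WT and 0.0528, 0.0801 and 0.0785 in *Crlf2-/-* libraries, and these groups overlapped (p = 0.2 in the same exact test). The 2 genes share part of their sequence, so fragments of the more abundant *Ly6c1* could have been assigned to *Ly6c2* and the reverse. Among the 7 tested genes of the Ly6 family, 5 were higher and 2 lower, with *Ly6e* at a log2 fold change of 0.65 and *Ly6a* at 0.60, both of which are known to be induced by interferons.

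*Plac8*, a small cysteine-rich protein of myeloid cells, was the most abundant of the 9 genes. It was measured at 39.3, 36.3 and 46.4 scaled FPKM in WT and at 56.9, 66.5 and 51.3 in *Crlf2-/-* libraries. All *Crlf2-/-* mice were above all WT mice. The means were 40.7 ± 5.18 FPKM (SD, n = 3) among WT animals, against 58.2 ± 7.69 FPKM (SD, n = 3) among *Crlf2-/-* animals, a ratio of 1.43. For *Plac8* the log2 fold change was 0.52 (standard error 0.14, 95% interval 0.19 to 0.84, adjusted p = 0.375 from limma), and it lay between 0.42 and 0.61 as single libraries were left out. *Plac8* lies on chromosome 5 (from 100553725 to 100572245, minus strand), 8982463 bases from the targeted gene *Crlf2*. Of the 10 other genes tested within 250 kb of *Plac8*, 8 were higher and 2 lower, with a median log2 fold change of 0.09, and 0 had an unadjusted p under 0.05 in limma.

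*Nos2*, which makes nitric oxide from L-arginine, was measured at 1.57, 1.94 and 2.85 scaled FPKM in WT and at 1.91, 2.21 and 1.92 in *Crlf2-/-* libraries. The *Crlf2-/-* values lay inside the WT range. For *Nos2* the log2 fold change was -0.03, with a 95% interval from -0.53 to 0.46 (adjusted p = 0.996 from limma). It changed sign to 0.19 without WT replicate 3, which had the highest value. The ratio of *Arg1* to *Nos2* in the same library was 7.75, 2.75 and 2.12 in WT and 25.5, 6.07 and 2.65 in *Crlf2-/-* mice, and overlapped (p = 0.6 in an exact two-sided permutation test).

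**Figure D2:**
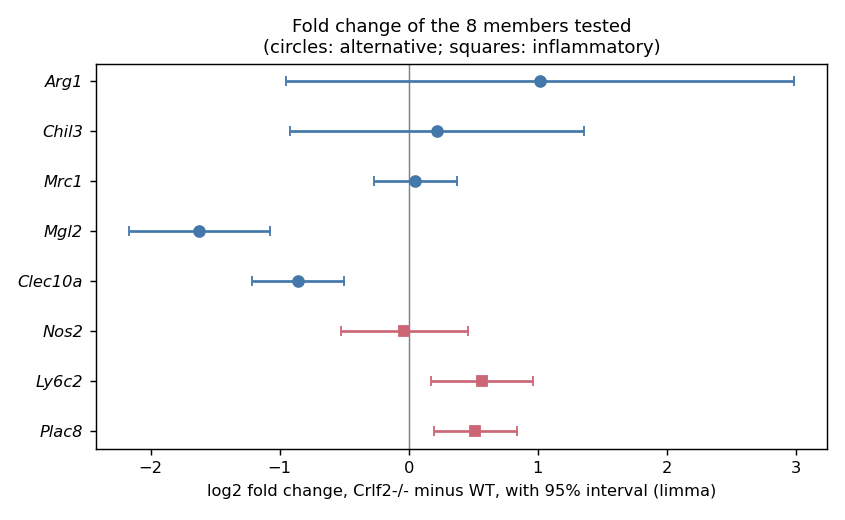
Log2 fold change of the 8 genes tested, Crlf2-/- minus WT, on the log2(FPKM + 0.1) scale (x axis), with 95% intervals from limma. Circles are alternative activation genes and squares are inflammatory genes. Intervals lie below 0 for Mgl2 and Clec10a, above 0 for Ly6c2 and Plac8, and span 0 for the others, most widely for Arg1.

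**Figure D3:**
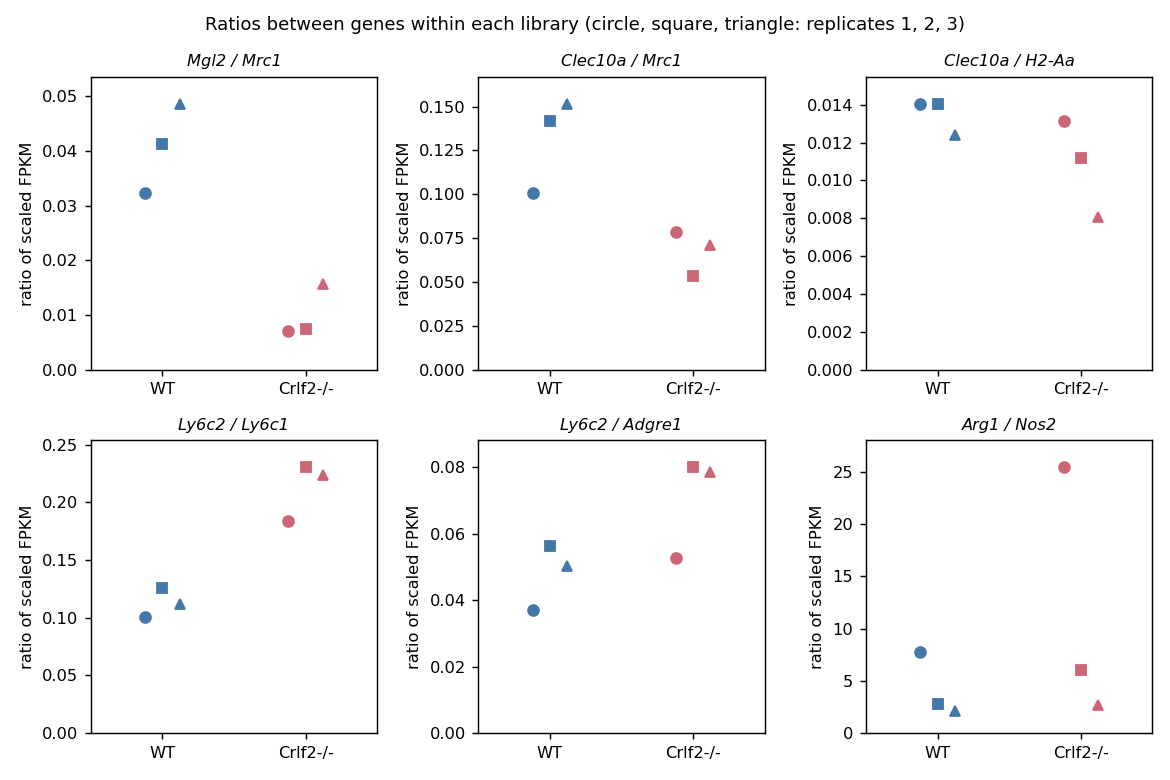
Ratio of scaled FPKM between 2 genes in the same library (y axes, from 0), with WT in blue, Crlf2-/- in red and symbols for replicates 1, 2 and 3. Mgl2 and Clec10a relative to Mrc1 are lower and Ly6c2 relative to Ly6c1 is higher in all 3 Crlf2-/- mice, while Clec10a relative to H2-Aa, Ly6c2 relative to Adgre1 and Arg1 relative to Nos2 overlap.

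The genes of alternative activation did not share a direction. Of the 5 tested alternative activation genes, 3 were higher and 2 lower, with a median log2 fold change of 0.05, and both with an unadjusted p under 0.05 were lower. Of the 3 inflammatory genes, 2 were higher and 1 lower, with a median of 0.52, and both with an unadjusted p under 0.05 were higher. Among all 15520 genes tested the median was -0.0042, and 49.08% were higher. Without *Crlf2-/-* replicate 2 the median of the alternative activation genes was -0.23. In WT hearts the order of mean level was *Plac8*, *Mrc1*, *Arg1* (7.84 FPKM), *Chil3* (4.53 FPKM), *Ly6c2*, *Clec10a*, *Nos2* (2.12 FPKM), *Mgl2* and *Retnla* (0.347 FPKM). The WT ranges of neighbours in that order overlapped for *Arg1* and *Chil3*, for *Chil3* and *Ly6c2* and for *Clec10a* and *Nos2*.

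By shape over the 6 libraries, *Mgl2* and *Clec10a* were most alike among the 9 genes (Pearson's r = 0.9), followed by *Chil3* and *Mrc1* (0.849) and by *Ly6c2* and *Plac8* (0.713). *Mgl2* against *Plac8* gave -0.88 and *Clec10a* against *Ly6c2* gave -0.859. These are descriptions over 6 libraries that share group and depth, and part of each value is the difference between the groups itself. The tested genes most alike *Arg1* were *Fgfr1op2* (r = 0.991), *Clint1* (0.99) and *Fam45a* (0.982), and those most alike *Ly6c2* were *Amigo3* (0.991) and *H2-T22* (0.983). For *Chil3* they were *Atg4a* (0.988), *Zfand6* (0.988) and *Trib1* (0.982), and for *Retnla* they were *Cd1d1* (0.984), *Knop1* (0.981) and *Nadk* (0.977). Several of these varied over a much smaller range, with *Clint1* between 15.3 and 17.7 scaled FPKM. All of these genes were picked because their r was among the highest of all genes tested, over only 6 libraries. How high such a picked r would be by chance was not tested, and neither was shared regulation. The values are therefore a description of shape only.

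Upstream of alternative activation, no transcript of the IL-4 and IL-13 route differed past the test. *Il13* had 0 fragments in each library, which allows up to 3. *Il4*, the receptor chain *Il4ra* and *Stat6* were named after their values were seen. *Il4* was at 1.45 to 1.996 scaled FPKM in WT and at 1.31 to 1.92 in *Crlf2-/-* libraries. *Il4ra* ranged from 21.7 to 27.8 scaled FPKM over the 6 libraries, and *Stat6* had a log2 fold change of -0.03. Of 17 tested genes listed for this route or around it, 9 were higher and 8 lower, with a median of 0.04 and 0 at an unadjusted p under 0.05 in limma. The smallest p-values belonged to the demethylase gene *Kdm6b* (log2 fold change 0.30), the transcription factor gene *Irf4* (-0.65, or -1.02 without *Crlf2-/-* replicate 1 and -0.41 without *Crlf2-/-* replicate 2) and *Klf4* (-0.16). The most abundant gene of the list was *Csf1r* (0.14), the receptor for macrophage colony-stimulating factor. It is also counted among the general macrophage markers and is not specific to this route.

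Further genes of alternative activation also differed in direction. Of 18 tested, 10 were higher and 8 lower, with a median of 0.05, and 0 higher and 2 lower had an unadjusted p under 0.05, against 3.22% and 3.36% of all genes tested. The median was -0.08 without *Crlf2-/-* replicate 1 and 0.13 without WT replicate 1. The lower ones encode the chemokines for CCR4. *Ccl22* was at 1.24, 0.688 and 1.00 scaled FPKM in WT and 0.214, 0.202 and 0.402 in *Crlf2-/-* libraries (log2 fold change -1.54, adjusted p = 0.181 from limma), and *Ccl17* had a log2 fold change of -0.45. Both chemokines are products of dendritic cells as well as of macrophages. The growth factor gene *Igf1* had a log2 fold change of 0.23 (0.12 without *Crlf2-/-* replicate 1), and fibronectin, *Fn1*, the most abundant of the list, one of 0.19.

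Further genes of inflammatory activation showed no common direction. Of 24 tested, 11 were higher and 13 lower, with a median of -0.02, and 3 higher and 2 lower had an unadjusted p under 0.05, against the same background. *Ptgs2*, the inducible cyclooxygenase, was at 2.11, 2.42 and 1.79 scaled FPKM in WT and 4.17, 4.47 and 2.70 in *Crlf2-/-* libraries (log2 fold change 0.79, adjusted p = 0.357 from limma). The interferon-γ receptor chain *Ifngr1* had a log2 fold change of -0.33, without overlap between the groups.

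None of the enzymes that use or make L-arginine differed past the test. Of the 20 genes of arginine metabolism, *Arg1* and *Nos2* included, 16 were higher and 4 lower, with a median of 0.06 and 0 at an unadjusted p under 0.05 in limma. The mitochondrial arginase *Arg2* was at 0.98, 0.352 and 0.32 scaled FPKM in WT and 1.43, 0.957 and 0.592 in *Crlf2-/-* libraries, which overlapped (log2 fold change 0.82). The endothelial synthase *Nos3* was at 5.19 ± 0.367 and 5.47 ± 0.465 FPKM (SD, n = 3), and the neuronal synthase *Nos1* at 0.0863 ± 0.0364 and 0.068 ± 0.0315 FPKM. *Ass1*, which rebuilds arginine from citrulline, had a log2 fold change of 0.26, *Sms*, the spermine synthase, one of -0.27 and *Oaz1*, the inhibitor of ornithine decarboxylase, one of 0.03.

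**Figure D4:**
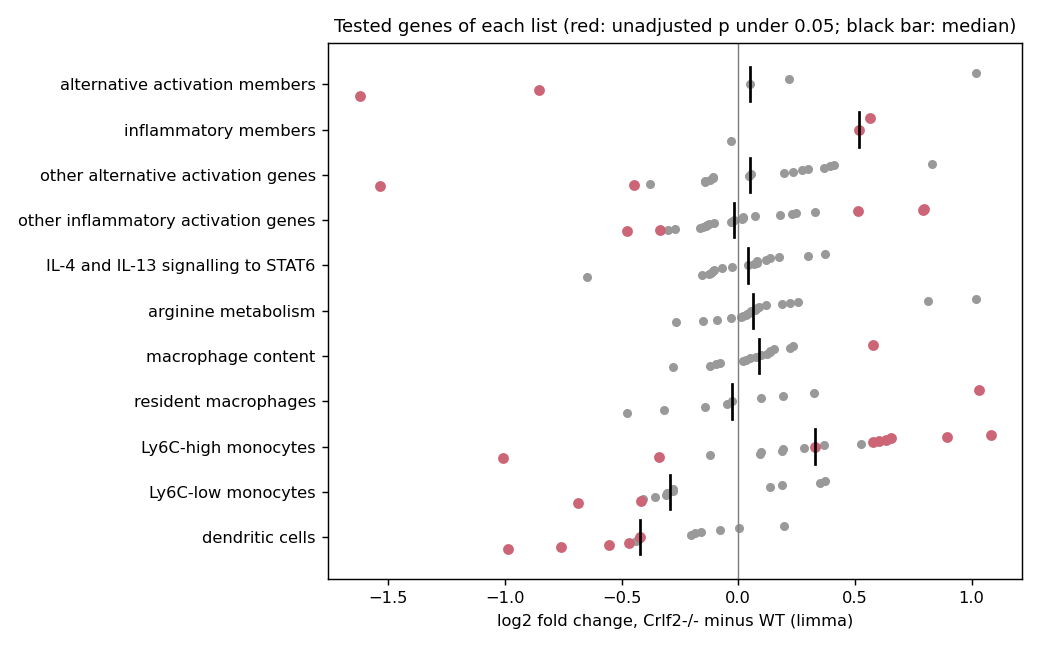
Log2 fold change, Crlf2-/- minus WT (x axis), of every tested gene in 11 lists (rows), in red where the unadjusted p was under 0.05, with a black bar at the median. The medians lie at 0.33 for Ly6C-high monocytes, -0.29 for Ly6C-low monocytes and -0.42 for dendritic cells, and between -0.03 and 0.09 for the further activation genes, arginine metabolism and macrophage lists.

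Because these genes report on cells as well as on activation, the markers of the cells that carry them were set beside them. General macrophage markers overlapped between the groups in sum, with 12 of 16 higher, a median of 0.09 and summed levels of 3428 to 6010 scaled FPKM in WT and 4029 to 4866 in *Crlf2-/-* libraries. *Adgre1*, which encodes F4/80 and was named after its values were seen, had a log2 fold change of 0.02. The Fc receptor *Fcgr1* (0.58) was the 1 gene of the 16 with an unadjusted p under 0.05, *Mertk* had -0.28 (-0.11 without WT replicate 1) and the most abundant, *Lyz2*, -0.12. The median of the 16 was -0.05 without WT replicate 3 and 0.25 without WT replicate 1. Of 9 tested resident macrophage genes, 4 were higher and 5 lower, with a median of -0.03. Among them *Siglec1*, a sialic acid receptor known to be induced by interferons, was at 5.71 ± 1.44 FPKM (SD, n = 3) among WT animals, against 11.5 ± 0.902 FPKM (SD, n = 3) among *Crlf2-/-* animals (log2 fold change 1.03, adjusted p = 0.15 from limma), whereas *Lyve1* had -0.48 and *Folr2* 0.32. With single libraries left out, *Lyve1* lay between -0.86 and -0.21, the ends given by omitting WT replicate 1 and WT replicate 3. *Folr2* lay between 0.19, when *Crlf2-/-* replicate 1 was omitted, and 0.51, when WT replicate 1 was.

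Genes of Ly6C-high monocytes other than *Ly6c2* and *Plac8* were higher in 14 of 17 cases, with a median of 0.33, where 7 higher and 2 lower had an unadjusted p under 0.05, against 3.22% and 3.36% of all genes tested. The median was 0.20 without *Crlf2-/-* replicate 1 and 0.53 without *Crlf2-/-* replicate 3. The 2 lower genes were *Ly6c1* and *Hp* (log2 fold change -1.01, with overlap between the groups), and *Ly6a*, *Ly6e* and *Fcgr1* were among the 7 higher ones. *Ccr2* (0.09) and *Itgam* (0.10) were among the genes that did not reach that p. *Ifitm3*, an interferon-induced restriction factor, was at 266 ± 13.6 FPKM (SD, n = 3) among WT animals, against 415 ± 58.8 FPKM (SD, n = 3) among *Crlf2-/-* animals (log2 fold change 0.63, adjusted p = 0.254 from limma). Of the 12 genes of Ly6C-low monocytes, 4 were higher and 8 lower, with a median of -0.29. Of these, 0 higher and 2 lower had an unadjusted p under 0.05 in limma, against 3.22% and 3.36% of all genes tested. The 8 lower genes included *Fabp4* at -0.69, *Itgal* at -0.41 and *Ace* at -0.30. The 4 higher genes were *Cebpb* at 0.37, *Nr4a1* at 0.35, *Treml4* at 0.19 and *Cx3cr1* at 0.14. *Fabp4* is also an adipose and endothelial gene and *Itgal* is carried by lymphocytes. The part of the number of monocytes in the values of *Ly6c2* and *Plac8* was not tested.

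Most of the tested dendritic cell markers lay lower, as did *Mgl2* and *Clec10a*, but several of them differed little. Of 13 tested, 2 were higher and 11 lower, with a median of -0.42, and 5 lower had an unadjusted p under 0.05, against 3.36% of all genes tested. The median was -0.16 without *Crlf2-/-* replicate 2 and -0.21 without WT replicate 3. All 14 listed markers had fragments, and their summed level was 875 to 1131 scaled FPKM in WT and 696 to 906 in *Crlf2-/-* libraries, with overlap. Most of this sum came from the class II genes *Cd74*, *H2-Aa* and *H2-Ab1* (WT means 595, 202 and 144 FPKM), which are not specific to dendritic cells. *Cd209a*, a lectin of conventional dendritic cells and of some macrophages, was at 2.73, 3.64 and 3.63 scaled FPKM in WT and 1.86, 1.08 and 2.11 in *Crlf2-/-* libraries (log2 fold change -0.99, adjusted p = 0.329 from limma). The migration receptor *Ccr7* had a log2 fold change of -0.76, the class II chain *H2-Aa* one of -0.55 and *Cd74*, the most abundant marker, one of -0.47. The 2 higher markers were *Sirpa* (0.20) and *Siglech* (0.00097). The lower markers that did not reach an unadjusted p under 0.05 were *Flt3* (-0.44), *H2-Ab1* (-0.42), *Itgax* (-0.20), *Clec9a* (-0.18), *Kmo* (-0.16) and *Xcr1* (-0.08). Among the 10 tested C-type lectins of macrophages, 5 were higher and 5 lower, with a median of -0.07, and *Mgl2*, *Clec10a* and *Cd209a* were the 3 with an unadjusted p under 0.05. The part of dendritic cells in the lower levels of *Mgl2* and *Clec10a* was not tested.

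Markers of other tissue components were also summed, and the red blood cell and T cell sums did not overlap between the groups. All 12 cardiomyocyte markers were lower in *Crlf2-/-* hearts, with a median of -0.72, and their summed level was 1478 to 2617 scaled FPKM in WT and 989 to 1912 in *Crlf2-/-* libraries, with overlap. All 5 tested red blood cell genes were lower (225.7 to 366 against 85.4 to 161), as were 11 of 13 T cell genes (25.6 to 36.1 against 14.6 to 17.4). Of the 7 lymphatic endothelial markers, which bear on *Mrc1*, 6 were lower, with summed levels of 44.7 to 64.0 in WT and 41.4 to 68.5 in *Crlf2-/-* libraries. The largest part of each sum was *Pdpn* (32.0 to 40.4 scaled FPKM), the 1 higher gene. *Ccl21a* added 19.4 in WT replicate 1 and 21.8 in *Crlf2-/-* replicate 2, so the sums say little of the other markers. Only *Mmrn1* (log2 fold change -0.61) had an unadjusted p under 0.05 in limma. Of 10 fibroblast genes 6 were higher, with a median of 0.08, and of 8 tested markers of eosinophils, mast cells and innate lymphoid cells of type 2, 3 were higher and 5 lower, with a median of -0.14. The part of these cells in the values of the 9 genes was not tested.

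**Figure D5:**
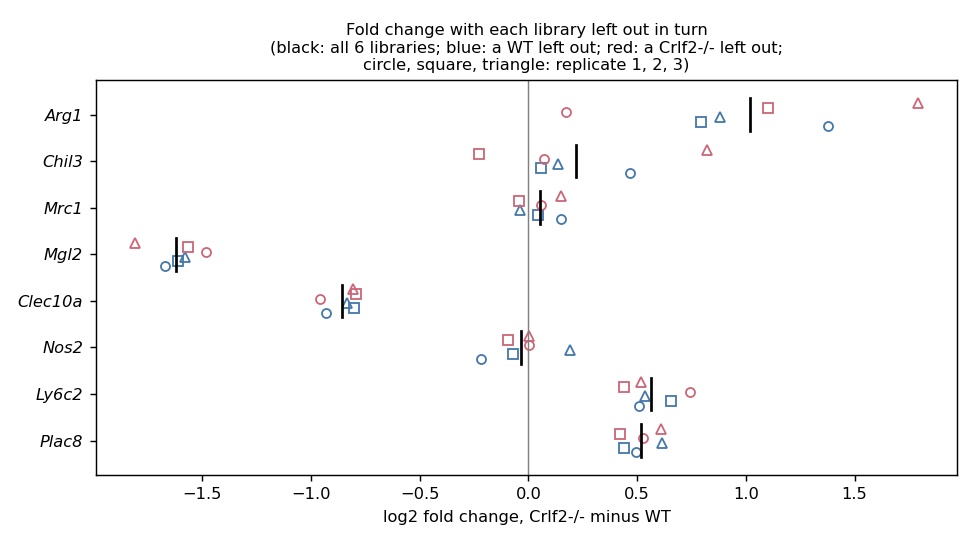
Log2 fold change, Crlf2-/- minus WT (x axis), of the 8 tested genes with each of the 6 libraries left out in turn (open symbols; blue where a WT library and red where a Crlf2-/- library was left out), beside the value from all libraries (black bars). Mgl2, Clec10a, Ly6c2 and Plac8 keep their side of 0, Arg1 ranges from 0.17 to 1.79, and Chil3, Mrc1 and Nos2 cross 0.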

How the data were processed

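Per gene and library, the authors deposited FPKM, made from reads that were cleaned with fastp, placed with HISAT2 2.0.5 and assigned to genes with featureCounts. The submitters' notes list mm10 and hg38 without a role, and the positions of the genes described here are those of GENCODE M21 (GRCm38).

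Deposited FPKM multiplied by gene length gave whole fragments for 100% of nonzero values (tolerance 0.05 fragments), from which depth and the filter were taken. The table held 0 columns of other samples. Trimmed means of M values put the libraries on 1 scale. The test was limma 3.58.1 in R 4.3.3 on log2(FPKM + 0.1) (eBayes with trend and robust), and p-values were adjusted by Benjamini-Hochberg across 15520 genes, namely those reaching 10 fragments in 3 or more libraries and a total of 15. Called genes had an adjusted p up to 0.05 and differed by 0.5 or more in log2. The scale understates changes of low genes. Correlations used log2(FPKM + 0.1).

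The members and lists were chosen with earlier results of these data known. Named genes were the members, *Crlf2*, near copies, arginine enzymes, the genes of each list nearest to the subject with the smallest p or highest level, and the genes most alike in shape, except where stated. Some genes that this rule names are not reported here. The test was tried on simulated fragments with 200 changed genes among 15602, where it called 202, 187 of them changed, and 0 of 15584 with none changed. The simulated spread between libraries was set by a formula and was narrower than that of *Arg1* or *Chil3* in these hearts. Genes with few fragments were given no change. This recovery is therefore not the power of the test in these data. Other steps ran in Python 3.11.15 with pandas 2.3.3, scipy 1.17.1, numpy 2.4.6, and figures were drawn with matplotlib 3.10.9.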

Additional observations from a re-analysis of the deposited data

How the results depend on the processing

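With 3 mice per group and 1 library each, the tests had little power, and exact permutation tests could not go below p = 0.1. *Retnla* and *Mgl2* rest on few fragments. Other scalings, pseudocounts and limma's voom on recovered fragments kept the sign of every member tested, and no alternative brought a member to an adjusted p of 0.05. The adjusted p of *Mgl2* from limma ranged from 0.0742 to 0.388 over 13 alternatives, and its log2 fold change was -0.60 with a pseudocount of 1. The stricter filter, which asks each library for 10 fragments, removed *Mgl2* from the test.

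The number of genes called was 2, and became 6 with no filter, 1 with the stricter filter and 1 to 14 with single libraries left out (14 without *Crlf2-/-* replicate 1, 8 without WT replicate 3, and 1 without WT replicate 1, WT replicate 2 or *Crlf2-/-* replicate 3). The number with an unadjusted p under 0.05 was 1021 and ranged from 674 (without WT replicate 2) to 1156. The median log2 fold change of the alternative activation genes ranged from -0.23 (without *Crlf2-/-* replicate 2) to 0.15. With single libraries left out, values on both sides of 0 were found for *Chil3* (-0.23 to 0.82), *Mrc1* (-0.044 to 0.15), *Nos2* (-0.22 to 0.19), *Fn1* (-0.019 to 0.43), *Nos1* (-0.28 to 0.0026), *Oaz1* (-0.12 to 0.17), *Lyz2* (-0.37 to 0.12), *Il4* (-0.24 to 0.026), *Stat6* (-0.077 to 0.017) and *Adgre1* (-0.0577 to 0.14). Single-library moves of over 1.5 times, with the sign kept, were found for *Arg2* (0.54 to 1.25), *Chil1* (-0.95 to -0.33), *Retnlg* (-1.55 to -0.14), *Il4ra* (0.0019 to 0.18), *Klf4* (-0.20 to -0.067), *Nos3* (0.011 to 0.12), *Ace* (-0.40 to -0.18), *Ass1* (0.17 to 0.32) and *Crlf2* (-0.63 to -0.34), besides those given with their values. The median log2 fold change of the gene lists also moved as single libraries were left out: IL-4 and IL-13 signalling (-0.0171 to 0.027), other alternative activation genes (-0.08 to 0.13), other inflammatory genes (-0.0903 to 0.0548), Ly6C-high monocytes (0.20 to 0.53), Ly6C-low monocytes (-0.26 to -0.19), macrophage content (-0.054 to 0.25), resident macrophages (-0.0939 to 0.28), fibroblasts (0.011 to 0.13), neutrophils (0.011 to 0.42), lung (-0.45 to -0.12), adipose tissue (-2.82 to -0.74), lymphatic endothelium (-0.44 to -0.17), arginine metabolism (0.044 to 0.11), dendritic cells (-0.52 to -0.16), the chitinase-like family (-0.44 to 0.13), C-type lectins (-0.28 to 0.0515), the Ly6 family (-0.0282 to 0.59) and eosinophils, mast cells and innate lymphoid cells (-0.30 to 0.0554). A pseudocount of 1 gave -0.18 for Ly6C-low monocytes, 0.22 for the Ly6 family and -0.66 for T cells. The stricter filter gave 0.46 for the Ly6 family and 0.11 for eosinophils, mast cells and innate lymphoid cells, and voom gave -0.31 for Ly6C-low monocytes. The cause was not tested.

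With the replicate number as a block, 4 genes were called, and no member was among them (adjusted p = 0.202 for *Mgl2* from limma). Libraries with the same number shared little of their deviation from the group means (correlations of -0.0163, 0.115 and 0.12), and no pairing of mice was assumed.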
